A study of Mus musculus with 4 samples.

Results

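The 10 genes described here encode histones and a chromatin protein that dividing cells need in quantity: the core histone genes Hist1h2ap and Hist1h2ae, the linker histone genes Hist1h1a, Hist1h1b, Hist1h1c, Hist1h1d and Hist1h1e, the histone variants H2afz and H2afx, and the high mobility group gene Hmgb2. They were taken by symbol from the 27998 genes of the count tables, in which 85 symbols belong to histone genes, and all 10 were found and measured. Virus-specific CD8+ T cells were sorted on day 8 after infection with LCMV Armstrong, an acute strain of lymphocytic choriomeningitis virus, and their RNA was read cell by cell, from the spleen of each of 2 chimeric mice. The hosts were sub-lethally irradiated Rag1-/- mice, which make no T or B cells of their own, and they received a mixture of WT (CD45.1) and Bcl3-/- (CD45.2) marrow on the C57BL/6 background, so that both genotypes met the virus in the same animal. Each chimera gave 1 WT and 1 Bcl3-/- library of GP33 tetramer-positive cells, called WT1 and KO1 (chimera 1) and WT2 and KO2 (chimera 2), with n = 2 libraries per genotype. The age of the animals was not given in the sources used here, and the Bcl3-/- marrow lacked the gene in every lineage that it formed, not in T cells alone.

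The 4 libraries held 21193300 (WT1), 20358780 (WT2), 22922219 (KO1) and 22672343 (KO2) unique molecular identifiers (UMIs), each of which stands for 1 captured RNA molecule. A barcode counted as a cell when it held 500 or more genes and no more than 10% mitochondrial UMIs, which left 4941, 8092, 5366 and 6494 cells in the same order, with medians of 3571, 2019, 3620.5 and 2948 UMIs per cell. Pairs of libraries shared between 37 and 63 cell barcodes, where chance gave 36 to 71.3. Levels are in CPM, a gene's UMIs in every 1000000 UMIs of the cells summed. Bcl3 itself was counted in every library, at 33.2 and 108 CPM in WT1 and WT2 and at 27.6 and 86.6 CPM in KO1 and KO2. The deleted part of Bcl3 was not given in the sources used here. Whether these UMIs lie outside it is not known, so that they cannot check the genotype of a library.

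DNA is wound around octamers of the core histones H2A, H2B, H3 and H4, and linker histones of the H1 family bind where the DNA enters and leaves the octamer. Cells in S phase must make as much new histone as new DNA, and the replication-dependent histone genes, most of which lie in large clusters, are transcribed and their mRNAs stabilized in that phase. Those mRNAs end in a conserved stem-loop in place of a poly(A) tail, whereas the replication-independent variants and Hmgb2 have ordinary poly(A) tails. The assay captures RNA through poly(A), so that replication-dependent histone mRNA is seen in part, through tailed forms or internal runs of A. Levels were therefore compared between cell states within a gene. Where genes are set side by side, the values are captured UMIs and not amounts of mRNA.

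The 3′ ends of the transcript models follow this division only in part. In GENCODE vM21 (GRCm38), a stem-loop with 6 paired bases was found in 43 of the 80 histone genes with a coding transcript, and in 6 of the 10 genes described here. The search asked for exact pairing, a stem that begins with GG and a loop that begins with TTT. A stem-loop with other letters, or one beyond the end of a model, would be missed. By this rule it was not found in the models of H2afz, Hmgb2, Hist1h1a or Hist1h1b, and it was found in that of the variant H2afx. The 4 sequences below are shown to show where the stem-loop (capitals) lies and whether a run of A precedes it, since a run of A is one place where poly(A) capture could prime. What each run contributes was not tested, and Hist1h2ao, with a run like that of Hist1h2ap, was at 0.166 CPM over all cells. A run of at least 12 A in the last 100 bases was found in 2 of the 80 genes, Hist1h2ao and Hist1h2ap, and in Hist1h2ap it starts at base 452 and the stem-loop follows directly, from base 464 to base 479 of a transcript of 482. In the other 3 genes the model runs on beyond the stem-loop, which ends at base 553 of 704 in Hist1h2ae, at base 720 of 1560 in Hist1h1c and at base 562 of 1384 in H2afx.
Hist1h2ap: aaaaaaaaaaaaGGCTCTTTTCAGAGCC
Hist1h2ae: aaaacaaaGGCTCTTTTCAGAGCC
Hist1h1c: atccaaaaGGCTCTTTTCAGAGCC
H2afx: tccacaaaGGCCCTTTTAAGGGCC

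Of the 10 genes, 7 lie on mouse chromosome 13 within 1.98 Mb, on a chromosome with 55 coding histone genes, and each is given here by its whole gene on GRCm38. Hist1h1b (chr13:21779883-21780625) and Hist1h2ap (chr13:21833026-21833507), both on the minus strand, form one group. Hist1h1d (chr13:23553262-23560686, plus strand), Hist1h2ae (chr13:23570517-23571220, minus), Hist1h1e (chr13:23620629-23622558, minus), Hist1h1c (chr13:23738808-23740367, plus) and Hist1h1a (chr13:23763666-23764406, plus) form the other. H2afz (chr3:137864487-137866922), Hmgb2 (chr8:57511907-57515999) and H2afx (chr9:44334694-44336077) stand apart on other chromosomes, all on the plus strand. Near-identical copies limit how far reads can be assigned: of the 98-base windows in the last 500 bases of the Hist1h2ap transcript, 92.2% also occur in another gene, mostly other H2A genes, as do 46.7% of those of Hist1h2ae. Hist1h1e shares 99.0% of its windows with the overlapping Hist1h2be and the pseudogene Gm11398, and the other 7 genes share none. Values of Hist1h2ap, Hist1h2ae and Hist1h1e are therefore uncertain as to which copy was counted.

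Upstream sequence was available from RefSeq (GRCm38.p6) for 9 of the 10 genes. In the 250 bases before the start, on either strand, a CCAAT box (letters CCAAT) was found in 9 of 9, against 33.8% of all 32851 promoters in the table, and a TATA box (TATAAA) in 5 of 9, against 12.4%. The cell cycle homology element (TTTGAA or TTCGAA) was found in 5 of 9, against 17.1%, and the H1 box (AAACACA) in 4 of 9, against 6.25%. The 4 genes with an H1 box were the linker genes Hist1h1b (−117), Hist1h1c (−112), Hist1h1d (−122) and Hist1h1e (−115), counted back from the RefSeq start. For Hist1h1d the RefSeq start is not the GENCODE one, and its stretch (within chr13:23554782-23555081) lies inside the GENCODE gene given above (chr13:23553262-23560686). No 2 matches overlapped. The 5 promoter stretches below were chosen because these genes mark the range of behaviour described next, from strongly to weakly raised in cycling cells. Each is read 5′ to 3′ on the gene's own strand, and capitals mark the motifs named above in either orientation. The stretch of Hist1h2ap is chr13:21833508-21833675 (−200 to −33 from the RefSeq start). The others are the last 130 bases before the start: chr13:21780626-21780755 (Hist1h1b), chr13:23738677-23738806 (Hist1h1c), chr3:137864357-137864486 (H2afz) and chr8:57511713-57511842 (Hmgb2). A match is a run of letters and not a measured binding site.
Hist1h2ap: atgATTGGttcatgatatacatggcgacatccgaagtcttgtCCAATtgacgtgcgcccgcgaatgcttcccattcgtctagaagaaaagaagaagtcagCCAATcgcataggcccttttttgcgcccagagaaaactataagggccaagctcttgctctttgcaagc
Hist1h1b: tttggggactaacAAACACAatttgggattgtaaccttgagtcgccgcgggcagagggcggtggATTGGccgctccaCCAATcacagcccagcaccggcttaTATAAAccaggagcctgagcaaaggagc
Hist1h1c: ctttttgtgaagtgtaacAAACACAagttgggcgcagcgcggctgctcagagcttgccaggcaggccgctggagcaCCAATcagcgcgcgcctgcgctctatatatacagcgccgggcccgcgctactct
H2afz: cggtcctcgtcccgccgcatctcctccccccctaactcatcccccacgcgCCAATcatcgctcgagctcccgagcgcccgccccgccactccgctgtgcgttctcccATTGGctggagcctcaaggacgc
Hmgb2: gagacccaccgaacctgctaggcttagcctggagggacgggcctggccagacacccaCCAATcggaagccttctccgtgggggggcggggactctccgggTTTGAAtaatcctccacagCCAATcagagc

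Cycling cells were found by clustering each library without the 10 genes or any other histone gene, and a cluster was called cycling when it held markers of S phase (26 genes such as Mcm5 and Rrm2) or of G2/M (26 genes such as Top2a and Ccnb2). This gave 739 and 1031 cycling cells in WT1 and WT2, and 397 and 699 in KO1 and KO2. Non-cycling T cells, the clusters with neither kind of marker and without B cell, plasma cell, myeloid or erythroid markers, numbered 3901, 6685, 4495 and 5405. T cell markers were found in both classes: 5 of the 6 CD8 T cell markers were found, and their summed level lay between 4935 and 5650 CPM in cycling cells and between 5988 and 6637 CPM in non-cycling T cells. Markers of other cells were seen at low levels too. All 14 genes of the myeloid list (led by S100a8 or Cst3) had UMIs in both classes and summed to 1745, 730, 1062 and 905 CPM in cycling and to 900, 724, 1073 and 802 CPM in non-cycling T cells (WT1, WT2, KO1, KO2). The 9 genes of the B cell list, led by Cd74, summed to 342 to 492 CPM in cycling and 291 to 371 CPM in non-cycling T cells, and the 5 of the plasma cell list, led by Jchain, to 182 to 192 CPM and 164 to 186 CPM, with Sdc1 at 0 in the cycling cells of KO2. The 5 erythroid genes, led by Hba-a1 or Hbb-bs, summed to 235, 121, 1.17 and 972 CPM in cycling cells against 7.50, 10.6, 1.58 and 33.5 CPM, with Hbb-bt and Alas2 at 0 in the cycling cells of KO1. The part of these cells or their RNA in the levels that follow was not tested. Because genes of 1 program were used to draw the clusters, the states are described and not tested against each other.

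All 10 genes were higher in cycling than in non-cycling cells, with no overlap between the 4 cycling and the 4 non-cycling values, which was so for 18.7% of 10848 genes with enough counts. The size of the difference was graded. The mean log2 ratio was 5.48 ± 0.91 (SD, n = 4 libraries) for Hist1h2ap, 4.75 ± 0.30 for Hist1h1b, 3.12 ± 0.47 for Hist1h2ae and 3.00 ± 0.69 for Hist1h1a. It was 2.56 ± 0.25 for H2afx, 2.47 ± 0.084 for Hmgb2, 1.73 ± 0.23 for Hist1h1d, 1.57 ± 0.17 for Hist1h1e, 1.41 ± 0.11 for H2afz and 1.08 ± 0.20 for Hist1h1c. Neighbours in this order differed by less than the larger of their SDs, except Hist1h1b and Hist1h2ae, Hmgb2 and Hist1h1d, and H2afz and Hist1h1c. The plot of cycling over non-cycling levels shows this order.

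**Figure D1:**
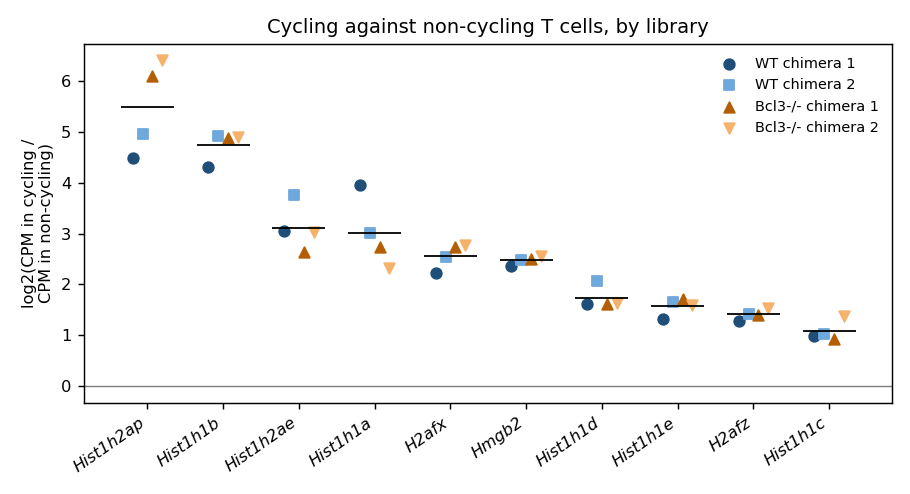
Log2 of the CPM in cycling cells over the CPM in non-cycling T cells (vertical axis) for the 10 genes (horizontal axis), 1 point per library, with a bar at the mean of the 4 libraries. All points lie above 0, and Hist1h2ap reaches from 4.49 in WT1 to 6.40 in KO2.

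Hist1h2ap, which encodes a core H2A, was at 2642 and 2537 CPM in WT1 and WT2 and at 2340 and 891 CPM in KO1 and KO2 among cycling cells. Among non-cycling T cells it was at 118, 81.7, 34.4 and 10.5 CPM in the same order. KO2 was lowest in both states, and the 2 WT libraries were highest in both. Cycling cells made up 7.40% to 14.96% of the cells and held 11.7% to 22.5% of all UMIs, but 78.8% to 84.6% of the Hist1h2ap UMIs. The gene was concentrated in few cells of each library: the 1% of all cells with the most Hist1h2ap UMIs held 39.7% to 55.1% of them. The same share was 8.20% to 9.75% for H2afz and 11.9% to 12.9% for Hmgb2. Concentration among the cycling cells alone was not measured. A single cell of WT1 held 234 Hist1h2ap UMIs, and the highest cells of the other libraries held 126, 141 and 99.

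Hist1h2ae, the other core H2A gene, was measured much more thinly, at 14.7, 17.5, 14.1 and 9.44 CPM in cycling cells and 1.79, 1.28, 2.28 and 1.16 CPM in non-cycling T cells (WT1, WT2, KO1, KO2). Its ratio lay between 6.18-fold and 13.6-fold. The 4 cycling values rested on 67, 61, 36 and 31 UMIs, and KO2 was again the lowest of them.

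The 5 linker histone genes differed in their ratios. Hist1h1b, which encodes the H1 subtype best known from dividing cells, was at 18.3, 34.7, 18.8 and 21.9 CPM in cycling cells and at 0.929, 1.14, 0.643 and 0.735 CPM in non-cycling T cells, 19.7-fold to 30.4-fold apart. The non-cycling values rested on 13, 16, 11 and 12 UMIs and were 0.174, 0.140, 0.641 and 0.353 of the level in free RNA (barcodes of at most 50 UMIs), which itself rested on 4, 5, 1 and 2 UMIs. Hist1h1c, whose H1 subtype is also made outside S phase, was at 25.1, 28.9, 26.6 and 27.1 CPM against 12.7, 14.2, 13.9 and 10.5 CPM, only 1.91-fold to 2.59-fold apart. In the free RNA Hist1h1c was at 34.6, 30.9, 21.1 and 29.1 CPM, so that its level was 0.724 to 1.26 of the free level in cycling and 0.359 to 0.661 of it in non-cycling T cells, and the part of free RNA in its ratio was not tested. Hist1h1e (2.50-fold to 3.28-fold) and Hist1h1d (3.05-fold to 4.21-fold) lay between them, nearer to Hist1h1c. Hist1h1a was at the edge of detection, with 5, 8, 4 and 4 UMIs in the cycling cells of the 4 libraries and 1, 4, 4 and 4 UMIs in the far more numerous non-cycling cells.

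The make-up of H1 transcripts therefore differed between the states in each library. Of all UMIs of the 5 H1 genes, Hist1h1b took 26.4% to 37.2% in cycling cells and 2.88% to 4.80% in non-cycling T cells, a mean difference of 26.2 percentage points (SD 4.22, n = 4). Hist1h1c took 31.1% to 38.3% in cycling and 53.1% to 62.3% in non-cycling cells, a mean difference of −22.7 points (SD 5.14, n = 4). In the free RNA, on 31 to 43 H1 UMIs per library, Hist1h1c took 44.2% to 67.7% in WT1, WT2 and KO1 and 28 of 40 UMIs in KO2, so that its non-cycling share could not be told apart from that of free RNA. The shares of Hist1h1d (6.46% to 8.24% against 6.01% to 9.01%) overlapped between the states. These shares are of captured molecules, and a gene whose mRNA is captured less well has too low a share in both states.

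**Figure D2:**
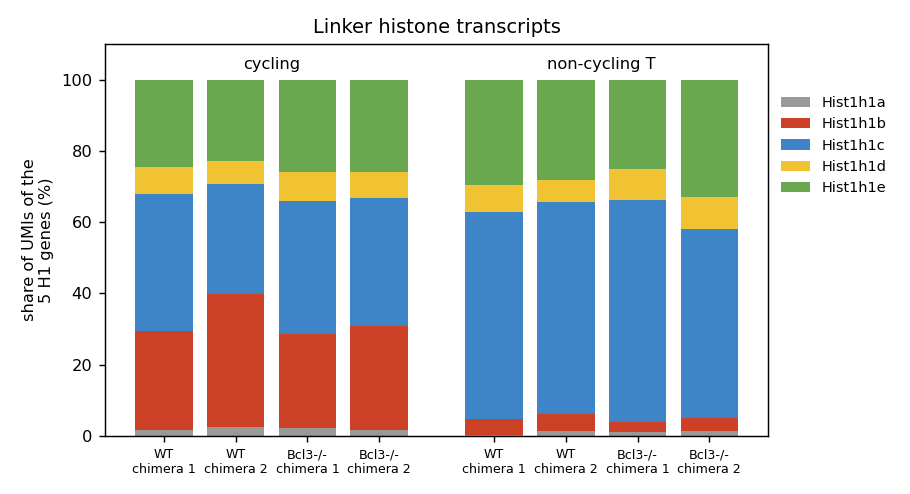
Share of the UMIs of the 5 H1 genes taken by each gene (vertical axis, percent), stacked to 100 for each library, in cycling cells (left) and non-cycling T cells (right). The red Hist1h1b part is between 26.4% and 37.2% on the left and between 2.88% and 4.80% on the right.

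The variants and Hmgb2 differed among themselves, with a smaller ratio for H2afz than for H2afx and Hmgb2. H2afz encodes H2A.Z, a variant found at promoters, and was at 2837, 3094, 3239 and 3234 CPM in cycling cells and 1168, 1153, 1232 and 1107 CPM in non-cycling T cells. H2afx, which encodes the variant phosphorylated at DNA breaks, was at 247, 314, 336 and 373 CPM against 52.9, 54.2, 50.8 and 54.8 CPM, 4.66-fold to 6.80-fold apart. Hmgb2, whose protein bends DNA and is abundant in proliferating lymphoid cells, was at 2454, 2482, 2912 and 3315 CPM against 479, 447, 514 and 564 CPM, 5.12-fold to 5.87-fold apart. Cycling cells held 26.1% to 41.2% of the H2afz UMIs and 43.1% to 59.7% of the Hmgb2 UMIs, so that for H2afz most molecules came from cells outside the cycling clusters. The ratios of these genes varied little between libraries, unlike that of Hist1h2ap.

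The order within the cycle was followed with marker UMIs instead of clusters, after each cell was thinned to 1000 UMIs. Cells with at least 4 UMIs of the S list and at most 1 of the G2/M list were set beside cells with at least 4 of both, cells with the reverse, and cells with none of either. They numbered 109, 199, 70 and 98 (S markers), 59, 157, 39 and 91 (both), 106, 166, 77 and 124 (G2/M markers) and 1855, 2875, 2298 and 2593 (neither) in WT1, WT2, KO1 and KO2. These classes are ranges of a score, and between 34 and 116 cells of a library lay at exactly 4 UMIs of a list, next to the limit.

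Hist1h2ap peaked in cells that held both sets of markers, at 9194, 6549, 8075 and 2937 CPM. It was at 1049, 837, 1376 and 525 CPM with S markers alone and at 1827, 1852, 1009 and 331 CPM with G2/M markers alone. In every library the class with both was the highest by far. Cells with G2/M markers were above those with S markers in both WT libraries and below them in both Bcl3-/- libraries, a contrast that was not tested. After thinning, 94.9%, 93.6%, 94.9% and 85.7% of the cells with both sets had a Hist1h2ap UMI, against 27.5%, 19.1%, 24.3% and 13.3% with S markers alone (exact binomial intervals, counting error only, of 85.9% to 98.9% and 19.4% to 36.9% in WT1). With G2/M markers alone the thinned shares were 27.4%, 30.7%, 24.7% and 12.9%. They were slightly below those with S markers in WT1 and slightly above them in KO1, unlike the CPM. Unthinned, the shares with both sets were 100%, 94.9%, 94.9% and 96.7%. Hist1h1b followed the same course at its lower level, with 59.1, 82.4, 34.3 and 68.4 CPM in cells with both and 3.26, 17.0, 8.56 and 12.3 CPM with S markers alone.

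H2afx was also highest in cells with both sets, at 586, 610, 900 and 1026 CPM, against 103, 115, 120 and 156 CPM with S markers alone and 401, 421, 431 and 401 CPM with G2/M markers alone. H2afz had smaller steps across these classes, from 2105 to 2560 CPM (lowest and highest library) with S markers to 3990 to 4598 CPM with both and 3416 to 3698 CPM with G2/M markers. Hmgb2 and Hist1h1c differed from the others. Hmgb2 was highest in cells with G2/M markers alone in all 4 libraries, at 4173, 3944, 4495 and 5211 CPM, against 3539, 2993, 3790 and 4494 CPM with both. Hist1h1c had its highest value there too, at 54.9, 32.4, 26.5 and 22.6 CPM, although in KO2 this was hardly above the 22.1 CPM of cells with both sets and few UMIs stood behind the values.

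**Figure D3:**
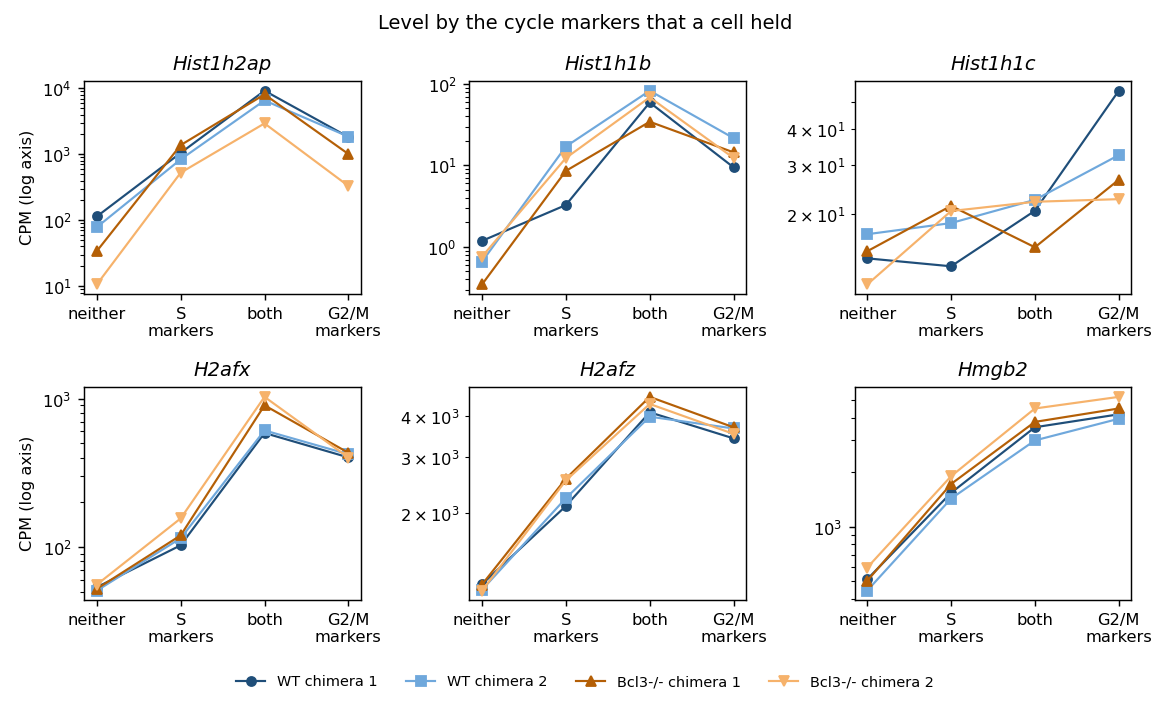
CPM on log axes (vertical) of 6 genes in cells with neither set of markers, S markers, both, or G2/M markers (horizontal), 1 line per library. Hist1h2ap, Hist1h1b, H2afx and H2afz are highest with both sets, and Hmgb2 with G2/M markers.

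Among the clusters of non-cycling T cells, Hist1h2ae and the H1 genes had too few UMIs to compare. H2afz was at 1417, 1453, 1548 and 1483 CPM in the clusters with terminal effector genes (Zeb2, Cx3cr1, Klrg1 and others) and at 852, 879, 885 and 810 CPM in those with interferon-stimulated genes, with no overlap over the 4 libraries. Clusters with memory precursor genes, which were found in 3 libraries, were at 1078 (WT1), 1076 (WT2) and 977 CPM (KO2), between the other two. Hmgb2 went another way, lowest with memory precursor genes (395, 369 and 421 CPM) and at 484, 487, 472 and 561 CPM with interferon-stimulated genes. Hist1h2ap varied less across these clusters within a library than between libraries, at 108 to 121 CPM in WT1 and at 9.40 to 13.3 CPM in KO2.

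Hist1h2ap in non-cycling T cells was set beside stray RNA. In the free RNA it was at 298, 231, 95.3 and 43.7 CPM in WT1, WT2, KO1 and KO2, in the same order of libraries as in non-cycling T cells. The non-cycling level was 0.394, 0.354, 0.361 and 0.241 of the free level, while the cycling level was 8.85 to 24.6 times it. Genes of other lineages, which T cells lack, stood at 0.117 to 0.171 (S100a8, neutrophils) and 0.0936 to 0.133 (Jchain, plasma cells) of their free level in the same cells, below Hist1h2ap in each library, as did the B cell genes Cd79a (0.0588 to 0.139) and Ms4a1 (0.0745 to 0.161), while Cd79b, another B cell gene, stood at 0.237 to 0.316. After thinning, 10.9%, 7.31%, 3.18% and 1.09% of the non-cycling T cells held a Hist1h2ap UMI (unthinned, 31.5%, 14.9%, 11.5% and 3.00%, median depth 1932 to 3549 UMIs). In the B-like clusters, cells of a type outside the sort gate with a median depth of 1974 to 2901 UMIs, the shares were 22.6%, 7.21%, 8.96% and 4.69%. The share in non-cycling T cells was thus below that of the B-like cells in 3 libraries and level with it in WT2. B-like clusters are no clean measure of background, since in WT1 and WT2 they held more S markers than non-cycling T cells. The S list summed to 1062, 1108, 543 and 502 CPM in B-like clusters and to 579, 627, 490 and 566 CPM in non-cycling T cells. The shares therefore cannot tell expression in non-cycling T cells from background, while the level relative to free RNA was above that of S100a8 and Jchain. Whether the B-like cells transcribed the gene themselves was not tested. The same order of libraries stood in the B-like clusters, at 931, 358, 88.8 and 32.0 CPM, and the myeloid-like clusters were at 764, 975, 347 and 236 CPM.

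**Figure D4:**
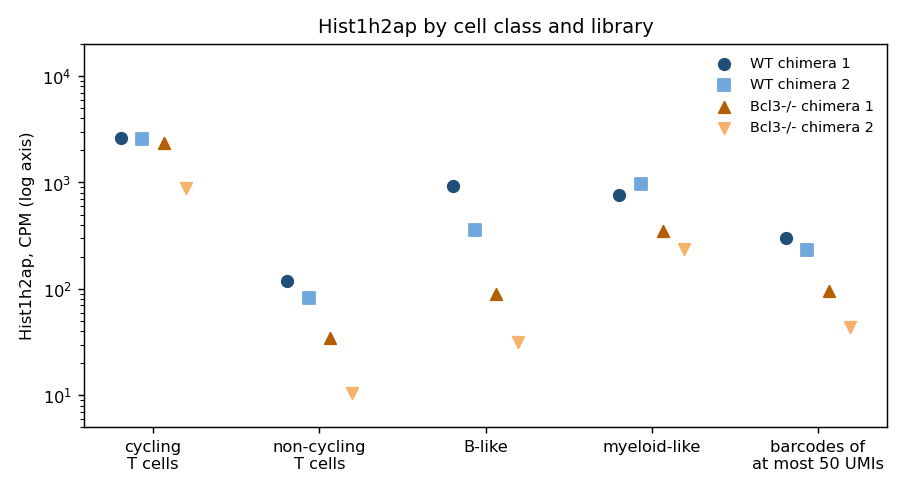
CPM of Hist1h2ap on a log axis (vertical) in cycling T cells, non-cycling T cells, B-like and myeloid-like clusters and barcodes of at most 50 UMIs (horizontal), 1 point per library. In each class other than cycling cells both WT libraries lie well above both Bcl3-/- libraries.

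The 2 genotypes were compared on UMIs summed per library, over all cells, over cycling cells and over non-cycling T cells, to ask whether loss of Bcl-3 changed these genes. Without pairing, none of the 10 genes was called over all cells, none of the 9 tested in cycling cells and none of the 9 tested in non-cycling T cells (edgeR quasi-likelihood test, Benjamini-Hochberg adjustment, threshold 0.05). At an unadjusted p under 0.05 there were 2, 1 and 1, near the share of all genes (15.6%, 8.87% and 12.5%), and DESeq2 called 0 in each, where it called 1.28%, 0.3% and 0.783% of all genes. Of all genes tested, 0.363% (42 of 11566), 0.346% (32 of 9252) and 0.224% (24 of 10717) were called. With the chimera as a block, which pairs the WT and Bcl3-/- cells of the same animal, 2, 2 and 1 of the 10, 9 and 9 genes tested were called, where 9.65%, 3.22% and 2.97% of all genes were.

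Hist1h2ap had the largest differences of the 10. Over all cells it was at 734 and 585 CPM in WT1 and WT2 and at 327 and 161 CPM in KO1 and KO2, so that both Bcl3-/- libraries were below both WT libraries. The log2 difference of Bcl3-/- minus WT was −1.44 (SE 0.33, adjusted p = 0.134 by edgeR), and with the block it was −1.53 (SE 0.12, adjusted p = 4.29e-06). In non-cycling T cells, where expression and background could not be told apart, it was −2.14 (SE 0.49, adjusted p = 0.206) and with the block −2.29 (adjusted p = 0.00572). Leaving out 1 library gave −3.31 (without KO1) to −1.50 (without KO2), past the threshold each time, with the lone library of a genotype assumed to vary like the other pair. In cycling cells it was −0.70 (SE 0.35, adjusted p = 0.613) and with the block −0.87 (adjusted p = 0.000388). In G2/M-like clusters, which KO1 lacked, it was −2.55, and in S-like clusters, which WT2 lacked, −0.89. By marker class it was −0.0067 (adjusted p = 1.00) in cells with S markers alone, where KO1 was above both WT libraries, −0.54 (adjusted p = 0.630) with both sets and −1.37 (adjusted p = 0.254) with G2/M markers alone, in classes chosen after seeing the data. The cycling difference rested on KO2: within chimera 1 it was −0.18 and within chimera 2 it was −1.51, and without KO2 it was −0.15 (adjusted p = 0.977) but without KO1 −1.60 (adjusted p = 1.51e-11). Over all cells the difference was −0.98 (adjusted p = 0.0740) without KO2 and −2.11 (adjusted p = 0.000575) without KO1. The level of Hist1h2ap in free RNA and in B-like cells differed between the libraries in the same direction, and its part in these differences was not tested. Cycling cells, which held most Hist1h2ap UMIs, were 14.96% and 12.7% of the WT1 and WT2 cells and 7.40% and 10.8% of the KO1 and KO2 cells. The part of this lower share in the difference over all cells was not tested either.

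The difference between genotypes was smaller in cycling than in non-cycling cells for Hist1h2ap, by 1.46 on the log2 scale (SE 0.14, adjusted p = 0.000168, edgeR interaction term over 8 sums with the library as a term). DESeq2 called it too, as the 1 gene of 15135 (0.00661%). By edgeR it was 1 of 3 genes called among 10848 (0.0277%), beside Mcpt8 and Prss34, protease genes of basophils and mast cells, and the only one of the 10 genes described here. The non-cycling values in this contrast (118, 81.7, 34.4 and 10.5 CPM) followed the order of the libraries in free RNA, so that the term cannot be read as a difference in expression between the states alone, and the part of free RNA in it was not tested. H2afx had the next lowest p of the 10 (log2 difference 0.35, SE 0.11, unadjusted p = 0.0045 and adjusted p = 0.999 by edgeR, with 3.89% of all genes at an unadjusted p under 0.05). For the other 8 genes the interaction lay between −0.73 and 0.20, with none called.

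Hist1h1b was at 5.30, 7.60, 2.89 and 4.23 CPM over all cells, with both Bcl3-/- libraries below both WT libraries. Its log2 difference was −0.87 (SE 0.24, adjusted p = 0.186 by edgeR) and with the block −0.88 (SE 0.18, adjusted p = 0.00712). In cycling cells it was −0.37 (SE 0.27, adjusted p = 0.743) and the genotypes overlapped. In non-cycling T cells Hist1h1b was at 0.929 and 1.14 CPM in WT1 and WT2 (13 and 16 UMIs). It was at 0.643 and 0.735 CPM in KO1 and KO2 (11 and 12 UMIs), and was not called there. The share of cycling cells differed in the same direction, and a lower sum over all cells cannot be told apart from fewer cycling cells: cycling clusters held 14.96% and 12.7% of the WT1 and WT2 cells and 7.40% and 10.8% of the KO1 and KO2 cells. The means were 13.8% ± 1.57 for WT and 9.08% ± 2.38 for Bcl3-/- (SD, n = 2), a difference of −4.77 points (exact permutation test, two-sided, p = 0.33, the smallest that 2 libraries against 2 allow). Within chimeras the difference was −7.56 and −1.98 points.

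Hmgb2 and H2afx lay higher in the cycling cells of both Bcl3-/- libraries than in those of both WT libraries. The log2 difference of Hmgb2 was 0.30 (SE 0.14, adjusted p = 0.565 by edgeR), 0.25 in chimera 1 and 0.42 in chimera 2, and with the block it was called at 0.30 (SE 0.08, adjusted p = 0.0383). Within S-like and within G2/M-like clusters, each found in 3 libraries, it was 0.16 (adjusted p = 0.999 and 0.848). H2afx had 0.31 (SE 0.13, adjusted p = 0.548) and with the block 0.32 (adjusted p = 0.0536), with alternatives from −0.14 in G2/M-like clusters and −0.046 in S-like clusters, each found in 3 libraries, to 0.60 in cells thinned alike and 0.66 in cells with both sets of markers, none of them called. Over all cells neither was above WT in both chimeras, and the log2 differences were 0.011 for Hmgb2 and −0.092 for H2afx. In non-cycling T cells too, Hmgb2 lay higher in both Bcl3-/- libraries (514 and 564 CPM) than in both WT libraries (479 and 447 CPM). It was not called there. H2afz differed by 0.097 (SE 0.14) in cycling and by 0.0002 (SE 0.12) in non-cycling T cells. The 3 linker genes Hist1h1c, Hist1h1d and Hist1h1e had log2 differences between −0.034 and 0.0076 in cycling cells, with SEs from 0.17 to 0.35, and none was called. Hist1h1a had too few counts for the edgeR test in either state, and DESeq2, which tested all 10 genes there, did not call it.

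**Figure D5:**
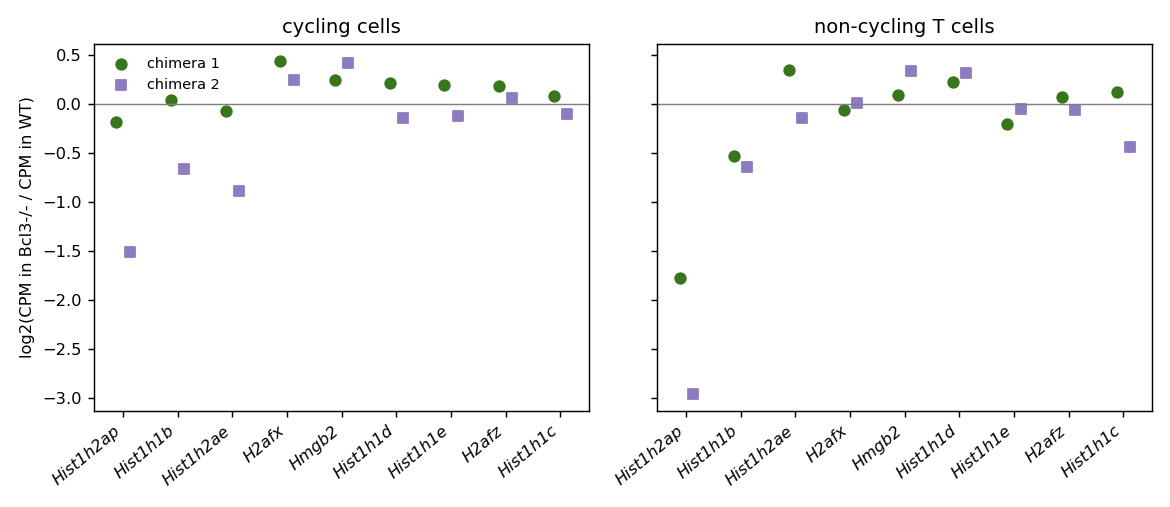
Log2 of the CPM in the Bcl3-/- library over that in the WT library of the same chimera (vertical axis) for 9 genes, in cycling cells (left) and non-cycling T cells (right), 1 point per chimera. Hist1h2ap is below 0 in both chimeras and both panels, at −0.18 and −1.51 in cycling and −1.77 and −2.95 in non-cycling cells.

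Other histone genes and the genes that supply histones were read from lists. Of 75 further histone genes, 43 had enough counts, many of them only through the cycling cells, so that no count of those higher there is given. The 5 with the most captured UMIs over all cells, H3f3b (2115 CPM), H3f3a (596 CPM), H2afj (463 CPM), H2afy (388 CPM) and H2afv (289 CPM), are replication-independent, and of these H3f3b, H2afj and H2afy overlapped between the states. Of 11 genes for histone mRNA processing and transcription, 6 were higher in cycling cells in all 4 libraries without overlap (18.7% of all genes were). Among them was Slbp, whose protein binds the stem-loop (330, 464, 357 and 354 CPM in cycling cells against 119, 154, 112 and 131 CPM). Lsm10 was lower (42.9 to 47.4 CPM against 53.0 to 59.5 CPM), and the share of all genes lower without overlap is not given here. Of 24 histone chaperones and remodelers, 14 were higher, including Asf1b, which hands new H3 and H4 to the assembly machinery (153, 221, 204 and 220 CPM against 9.93, 12.3, 9.88 and 10.5 CPM). Of 8 further HMG genes 6 were higher, including Hmgn2 (664 to 720 CPM against 94.3 to 156 CPM).

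Between the genotypes, none of these list genes was called over all cells or in non-cycling T cells without pairing (edgeR). At an unadjusted p under 0.05 there were 10, 2, 9 and 1 over all cells and 2, 0, 4 and 1 in non-cycling T cells among the further histone (41 and 21 tested), processing (11 and 10), chaperone (24) and HMG (8) genes, where 15.6% and 12.5% of all genes were. DESeq2 called 3 over all cells (1.28% of all genes), all lower in Bcl3-/- cells (Hist2h2aa1, another core H2A gene, and the chaperone and remodeler genes Nasp and Hells), and 0 in non-cycling T cells. In cycling cells Hist2h2aa1 fell by edgeR's test and was not called by DESeq2. It was at 19.1 and 20.3 CPM in WT1 and WT2 and at 7.44 and 5.18 CPM in KO1 and KO2, a log2 difference of −1.70 (SE 0.27, adjusted p = 0.0356 by edgeR). With the block, 3 of 41 further histone genes tested (Hist1h3b, Hist1h4i and Hist2h2aa1), 2 of 11 processing genes (Slbp and Casp8ap2), 7 of 24 chaperones and 3 of 8 HMG genes fell over all cells and none rose, where 9.65% of all genes were called and in sums that hold fewer cycling cells. In cycling cells with the block, Hist1h2af, Hist1h2ag and Hmgb1 rose while Hist2h2aa1 and the remodeler gene Hells fell (3.22% of all genes called), and in non-cycling T cells Hmgb1 rose and Hmga1 fell (2.97% of all genes called). Hist1h2af, Hist1h2ag and Hist2h2aa1 are all H2A genes that share windows with Hist1h2ap; the first pair moved in the opposite direction to it and Hist2h2aa1 in the same direction. Hist1h2ag was at 4.40 and 2.29 CPM in WT1 and WT2 and at 5.87 and 14.3 CPM in KO1 and KO2 (log2 difference 1.48 with the block, adjusted p = 0.0456).

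Over 14 sums of a library and a state, the patterns most like those of the 10 genes were read from 6844 genes with a mean of at least 10 CPM, by Pearson correlation of log2(CPM + 10), which is a description because the sums share libraries and the contrast of cycling with non-cycling cells. H2afx was most like Mxd3 (0.996), Kif11 (0.994) and Nusap1 (0.986), H2afz like Mad2l1 (0.990), Tacc3 and Ccna2, and Hmgb2 like Hdgf (0.986), Mad2l1 and Cks1b. Hist1h1b was most like Esco2 (0.991), Ncapd3 and Cdca5, and Hist1h1e also like Esco2 (0.985), Bub3 and Cdkn2c. Hist1h1a was most like Nfatc2ip (0.982), Zw10 and Emc7, and Hist1h1d like Ncapg2 (0.981), Ube2t and Lrr1. The nearest genes were less alike for Hist1h2ap (Snrnp70, 0.953, Prps1 and Gmds), Hist1h2ae (Ccdc167, 0.947, Smc2 and Alyref) and Hist1h1c (Ndufb7, 0.926, Tceb2 and 2700094K13Rik). Among the 10 genes themselves, H2afz and Hmgb2 were nearest to each other (0.987), and Hist1h1c was nearer to Hmgb2 (0.818) and H2afz (0.786) than to Hist1h1b (0.269).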

How the data were processed

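Cells were sorted by the authors as GP33 tetramer-positive CD8+ T cells and prepared with the 10x 3′ kit (version 2). The deposited files hold raw UMI counts per gene and barcode, with empty barcodes included, made by the authors with bcl2fastq 2.17 and Cell Ranger 2.2.0 on mm10 per the submitters' processing notes. The annotation is not given in the sources used here. No sample column was left unused (0 columns).

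From these counts, genes seen in under 2 cells were dropped and each library was clustered with Seurat 5.3.0 (2000 variable genes, 15 principal components, 20 neighbours, resolution 0.8) without the 10 genes and all other histone genes. Clusters smaller than 1% of their library were not used. A cluster took the name of a marker list with at least 3 markers 2-fold above other cells, found in 10% of its cells, and 1 among its 10 leading genes. S-like clusters were found in 3 libraries and G2/M-like clusters in 3, and clusters with both in all 4, so the cycling clusters were pooled. UMI counts were summed per library and tested with edgeR 4.0.16 (R 4.3.3, limma 3.58.1) and, as an alternative, DESeq2 1.42.0. The scripts were tested on simulated data. A shared number marks the WT and Bcl3-/- cells of 1 animal. Across 6863, 6849 and 6687 genes, which are not independent replicates, the difference of WT1 from WT2 had a correlation with that of KO1 from KO2 of 0.291 (all cells), 0.164 (cycling) and 0.502 (non-cycling T). With 2 libraries per genotype, p-values rest on the spread between these few samples and, by edgeR, on a spread estimated across all genes tested. A small SE with the block is therefore no measure of how alike the 2 chimeras were for a gene. For Hist1h2ap in cycling cells the log2 differences within chimeras were −0.18 and −1.51, while the SE with the block was 0.15. No doublet caller was run; barcodes with UMIs of T cell and of B or myeloid markers were left out as an alternative. Confidence intervals are exact Clopper-Pearson at 95%. Named genes are the 10 genes and those of the lists that were called, up to 5 by lowest p, or the most abundant. Mcpt8, Prss34 and the list genes given as examples of cycling levels were chosen after their values were seen. The 10 genes and the lists were chosen with earlier results of these data known. The sums for likeness include clusters with S and G2/M markers together, which had not been planned. Coordinates and transcripts are from GENCODE vM21 (GRCm38) and promoters from RefSeq (GRCm38.p6).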

Additional observations from a re-analysis of the deposited data

Results flagged for a closer look

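The difference between genotypes in Hist1h2ap was not the same in the 2 cell states: it was 1.46 less negative on the log2 scale in cycling cells than in non-cycling T cells (SE 0.14, adjusted p = 0.000168, edgeR interaction term). In CPM, cycling cells of WT1, WT2, KO1 and KO2 were at 2642, 2537, 2340 and 891, and non-cycling T cells at 118, 81.7, 34.4 and 10.5. Under 7 alternatives it was called each time, with adjusted p up to 0.0113 and values between 1.25 and 1.70. Free RNA in the barcodes of at most 50 UMIs was at 298, 231, 95.3 and 43.7 CPM, in the same order of libraries as the non-cycling values. The term therefore cannot be read as a difference in expression between the states alone, and the part of free RNA in it was not tested.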

How the results depend on the processing

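The number of genes called between the genotypes over all cells (42 of 11566) was 1116 with the replicate block, 196 with DESeq2, 64 with equal cells of 1000 UMIs, 27 without barcodes with T cell and B or myeloid markers (20 with a stricter form of that rule, chosen after seeing the data), 16 without other cell types, 4 with no filter on low counts, and 40 to 228 with 1 library left out. In cycling cells (32 of 9252) it was 298 with the block, 254 with no filter, 85 in G2/M-like clusters, 12 without the mixed barcodes, 7 in S-like clusters, 8 in cells with S markers only and 3 with G2/M markers only (both chosen after seeing the data), and 52 to 258 with 1 library left out. In non-cycling T cells (24 of 10717) it was 318 with the block, 117 with DESeq2, 92 without the mixed barcodes, 42 with the stricter form, 47 with cycling set by marker UMIs, 39 with at least 800 genes per cell, 4 with no filter, and 51 to 423 with 1 library left out. The interaction (3 genes) gave 1 with DESeq2, 10 with marker UMIs, 27 with no filter and 13 to 33 with 1 library left out. The block adds no degrees of freedom to the interaction, which already holds the library, and was not run there. The mixed-barcode rule removed most cells, leaving 515, 3034, 325 and 1373 in all and 22, 217, 7 and 79 cycling cells (WT1, WT2, KO1, KO2), and the stricter form left 172, 690, 54 and 273 cycling cells, so that neither can be read as removal of doublets alone. The cause of these shifts was not tested.

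Hist1h2ap stayed below 0 between the genotypes in all 13 alternatives over all cells, 20 in cycling and 15 in non-cycling T cells, and passed the threshold in 4, 5 and 6. Its log2 difference over all cells was −1.53 with the block, −2.38 without the mixed barcodes, −1.89 with the stricter form and −2.11 to −0.98 with 1 library left out. In cycling cells it was −0.87 with the block, −0.72 with no filter, −2.55 in G2/M-like clusters, which KO1 lacked, −1.71 without the mixed barcodes (7 cells in KO1), −0.0067 in cells with S markers only and −1.60 to −0.15 with 1 library left out, lowest without KO1 and highest without KO2. In non-cycling T cells it was −2.29 with the block, −3.33 without the mixed barcodes and −3.31 to −1.50. With the block, Hist1h1b over all cells was called at −0.88 and Hmgb2 in cycling cells at 0.30. H2afx in cycling cells turned to −0.14 in G2/M-like and −0.046 in S-like clusters. The differences of the 9 genes other than Hist1h2ap had 358 alternative values, 59 of them with another sign, and those 2 calls were the only ones past the threshold. The Hist1h1c share of H1 transcripts differed by −17.4 points after thinning to 1000 UMIs. All 10 genes lay above the non-cycling level without overlap in every alternative but thinning, where 9 did. The share of cycling cells differed by −5.89 to −2.80 points, −6.45 to −3.08 with 1 library left out and −4.77 with the block. Genes with few UMIs, such as Hist1h1a, are limited by depth.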
